A study of Homo sapiens with 12 samples.

Results

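The 10 genes described here code for feedback inhibitors of MAPK signaling: DUSP1, DUSP4, DUSP5, DUSP6, DUSP8 and DUSP10 among the dual-specificity phosphatases, the Sprouty genes SPRY2 and SPRY4, and the SPRED genes SPRED1 and SPRED2. They were picked by gene symbol, with earlier results of these data known, and each symbol matched 1 of the 19973 genes in the table. The study measured RNA by paired-end sequencing in H460 and A549, established human non-small cell lung cancer (NSCLC) cell lines grown in RPMI-1640 with serum. Cells of each line, labelled WT, were either non-treated (control) or kept with isovalerylspiramycin I (ISP-I) at 10 µM for 48 h. ISP-I is a component of the macrolide antibiotic carrimycin. The study states that both lines carry homozygous mutations that inactivate KEAP1. Each of the 4 groups had 3 libraries, 12 in all. The labels call them replicates without saying whether they came from separate cultures, so the tests measure the spread between these libraries, which may be technical. The controls were labelled non-treated and no solvent was named for them.

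MAPK cascades relay signals from growth factor receptors and stress sensors to ERK, JNK and p38, kinases that act when phosphorylated on a threonine and a tyrosine. The MAPK phosphatases of the DUSP family remove both phosphates. Many of their genes, like those of Sprouty and SPRED, are switched on by the same cascades and limit them in turn, which is why they are read as feedback genes. DUSP1, DUSP4 and DUSP5 act in the nucleus, DUSP6 acts on ERK in the cytoplasm, and DUSP8 and DUSP10 prefer JNK and p38. Sprouty proteins restrain signaling between receptor tyrosine kinases and RAF, and SPRED proteins bring the RAS-inactivating protein neurofibromin to the membrane.

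The libraries held 14225849 to 17874422 reads on genes. By their gene counts, the third ISP-I library of H460 (chi-square per degree of freedom of 54.4 and 92.0 against the other two, which were at 21.5 to each other) and the third control library of A549 (26.7 and 30.8, against 3.30) stood apart from their groups. Without the former, 6 members in place of 7 rose over 2-fold in H460, since DUSP6 came to 0.99 on the log2 scale, and without the latter the A549 count stayed at 3. Neither removal changed which side of the threshold a member was on within H460 or within A549, while the line differences of DUSP1 and DUSP4 and the control difference of SPRED2 lost it, as given beside them. In the labelled lines the keratins KRT8, KRT18 and KRT19 were abundant and the 5 epithelial markers summed to 327 to 1252 FPKM (reads scaled to gene length and to the reads on all genes of a library), but CDH1 was at 0 reads in the control H460 libraries and EPCAM reached at most 6 reads in any H460 library. The 4 leukocyte markers summed to 5.18 to 6.48 FPKM in control H460, 0.849 to 1.66 in treated H460, 0.748 to 1.32 in control A549 and 0.0727 to 0.333 in treated A549, mostly CD14, with CD3E at 0 in all 12 libraries. The 3 endothelial markers summed to at most 0.368 FPKM in any library. The 3 fibroblast markers summed to 9.61 to 11.1 FPKM in control H460, 4.91 to 5.79 in treated H460, 0.869 to 1.12 in control A549 and 1.09 to 1.29 in treated A549. Their part in the results was not tested. In bulk RNA, fewer cells carrying a transcript and less of it per cell cannot be told apart.

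In H460, 9 of the 10 genes rose with ISP-I. Changes were tested with limma on log2(FPKM + 1), p-values were adjusted by the Benjamini-Hochberg method over all genes tested, and "rose" or "fell" is used for an adjusted p under 0.05. Of the 9, 7 rose over 2-fold (DUSP10, SPRY2, DUSP8, DUSP5, DUSP1, SPRY4 and DUSP6), a limit passed upward by 10.5% of the 13423 genes tested in this line. An adjusted p under 0.05 upward at any fold was reached by 27.6% of those genes, so SPRED1 and DUSP4, which rose by less, stand against a high background. No member fell, while 41.5% of all genes fell and 15.2% fell over 2-fold. The median change of the 10 was 1.54 on the log2 scale, beside −0.15 over all genes tested. When the libraries were scaled by median-of-ratios factors, the median over all genes moved from −0.15 to 0.01 and the split of genes over 2-fold moved from 1409 higher and 2047 lower to 1954 higher and 1504 lower. The count of 7 members was the same under that scaling, and relative to the all-gene median each H460 change given here lies higher than printed.

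In A549, 7 of the 10 genes rose and 1, DUSP8, fell. Over 2-fold there were 3, DUSP5, DUSP1 and DUSP10, all higher, where 4.20% of the 13705 genes tested in A549 were higher and 3.51% were lower at that limit. At any fold 30.5% of all genes rose and 27.0% fell, so the 4 smaller rises, those of DUSP4, DUSP6, SPRED1 and SPRY4, and the fall of DUSP8 were of a kind common among all genes. The median change of the 10 was 0.55 on the log2 scale, beside 0.02 over all genes tested in A549.

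The change in H460 minus the change in A549 was tested as the interaction of line and treatment over the 12 libraries. It exceeded 1 on the log2 scale for SPRY2, DUSP10 and DUSP8, all toward H460, as it did for 5.93% of the 13953 genes tested, while 10.1% lay below −1. At any size 5 members had a larger change in H460 and 1, DUSP4, a larger change in A549, beside 18.6% and 34.7% of all genes. The median over the members was 0.43 and over all genes −0.16. Under median-of-ratios scaling the member counts became 4 past 1 and, at any size, 7 toward H460 and 0 toward A549, with a median of 0.73, and the all-gene counts past 1 moved from 827 higher and 1407 lower to 1298 higher and 825 lower.

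**Figure D1:**
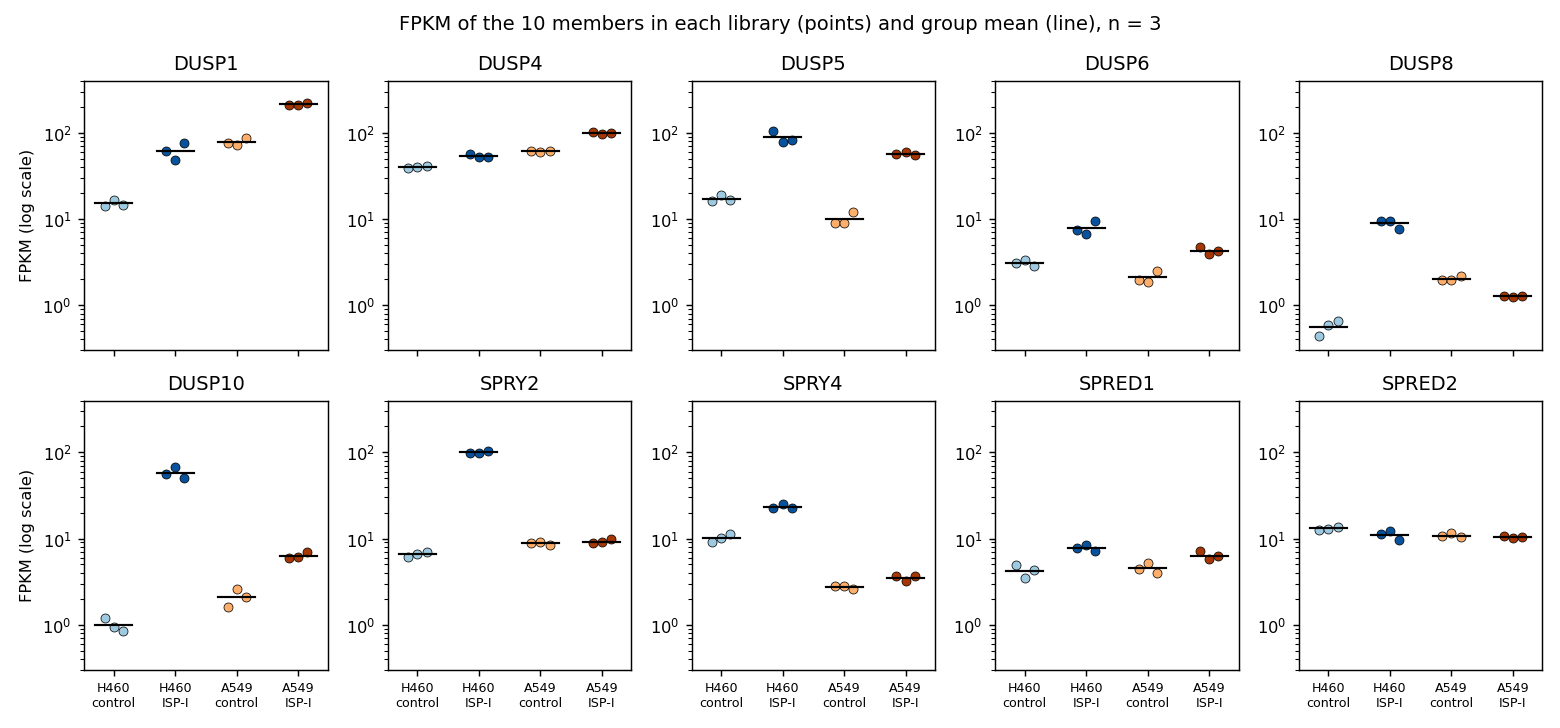
FPKM on a log axis of each of the 10 genes in the control and ISP-I libraries of H460 and A549, with 1 point per library and a line at the group mean (n = 3). The treated H460 points of DUSP8, DUSP10 and SPRY2 stand far above their controls, whereas in A549 the SPRY2 points overlap and the treated DUSP8 points lie below the controls.

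**Figure D2:**
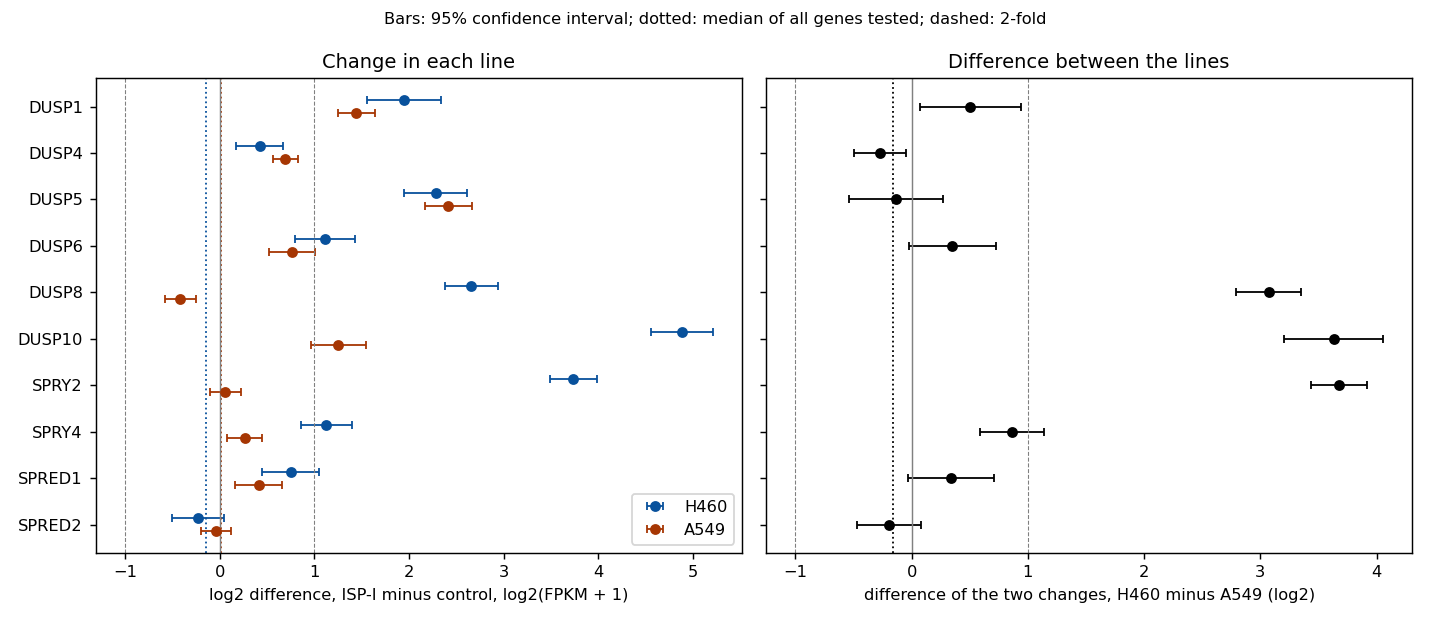
Left, log2 difference of ISP-I minus control on the log2(FPKM + 1) scale in H460 (blue) and A549 (orange) with 95% confidence intervals, the median of all genes tested (dotted) and the 2-fold limits (dashed). Right, the H460 change minus the A549 change: SPRY2, DUSP10 and DUSP8 lie beyond 1, at 3.68, 3.63 and 3.07, while the signs of DUSP4, DUSP5 and SPRED2 there, and of SPRED2 in H460, turn under median-of-ratios scaling.

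DUSP1, an inducible nuclear phosphatase with a preference for p38 and JNK, was the most abundant member in A549. In H460 its 3 control libraries held 14.3, 16.6 and 14.7 FPKM and its 3 ISP-I libraries 61.4, 48.9 and 77.0 FPKM. In A549 the control libraries held 76.4, 72.9 and 88.0 FPKM and the treated ones 210.1, 213 and 225 FPKM. Treated and control libraries did not overlap in either line, and the control range in A549 overlapped the treated range in H460. The mean went from 15.2 ± 1.25 to 62.5 ± 14.1 FPKM (SD, n = 3) in H460, a ratio of 4.11 and a log2 difference of 1.95 (SE 0.169, adjusted p = 1.63e-05, limma). In A549 it went from 79.1 ± 7.91 to 216 ± 8.0 FPKM, a ratio of 2.73 and a log2 difference of 1.44 (SE 0.0853, adjusted p = 5.34e-06). The difference between the lines was 0.51 (adjusted p = 0.0494), and it missed the threshold in 11 of the 19 alternatives tried, with adjusted p up to 0.101, among them the removal of any 1 A549 library and of the third treated H460 library (0.34, adjusted p = 0.0689).

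DUSP1 and DUSP8 were the members with a promoter window that held the cAMP response element TGACGTCA, a palindrome bound by CREB and ATF factors. RefSeq windows of 250 bases before to 50 after a transcription start were at hand for 8 of the 10 genes, in 12 windows. DUSP4 and DUSP5 had no window, so no motif was searched in them. The element occurred in 1.85% of the 35116 windows searched. DUSP8 held 2 copies, as did or exceeded 0.0598% of all windows. The 250 bases before the start are shown to place these copies, in capitals, in the gene that rose in both lines and in the gene that moved in opposite directions. The regions are chr5:172771196-172771445, minus strand, for DUSP1 and chr11:1572272-1572521, minus strand, for DUSP8 (GRCh38.p14, 5′ to 3′).
DUSP1: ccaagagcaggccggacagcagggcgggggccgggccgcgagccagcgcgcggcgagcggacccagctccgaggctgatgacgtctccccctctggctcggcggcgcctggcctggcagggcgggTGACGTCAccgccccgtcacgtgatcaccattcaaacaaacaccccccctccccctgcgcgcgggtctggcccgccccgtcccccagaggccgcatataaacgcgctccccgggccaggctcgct
DUSP8: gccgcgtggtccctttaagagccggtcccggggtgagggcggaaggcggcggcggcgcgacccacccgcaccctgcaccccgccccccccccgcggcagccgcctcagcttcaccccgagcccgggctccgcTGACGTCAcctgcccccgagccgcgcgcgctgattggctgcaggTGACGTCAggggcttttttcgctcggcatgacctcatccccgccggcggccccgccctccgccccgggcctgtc
The copy in DUSP1 began 125 bases before the start and those in DUSP8 began 118 and 74 bases before it. A match of letters is not evidence of binding. Both strands were searched for each motif. The ETS motif CCGGAAG, present in 10.3% of windows, had no match in the members' windows, and shorter ETS sites were not searched. The CArG box of serum response factor, present in 1.29%, had no match in them either.

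DUSP5, a nuclear phosphatase that acts on ERK, rose by similar amounts in both lines. Its H460 control libraries held 16.2, 19.0 and 16.7 FPKM and its treated ones 105.5, 77.9 and 82.6 FPKM. Its A549 control libraries held 8.93, 9.02 and 11.99 FPKM and its treated ones 56.7, 59.5 and 55.2 FPKM. Every treated library thus lay above every control library of either line. The ratio of means was 5.12 in H460 (17.3 ± 1.496 to 88.7 ± 14.8 FPKM) and 5.73 in A549 (9.98 ± 1.75 to 57.1 ± 2.22 FPKM). The log2 differences were 2.28 (SE 0.145, adjusted p = 3.22e-06) and 2.42 (SE 0.109, adjusted p = 1.54e-06). The H460 change minus the A549 change was −0.13 with a 95% interval of −0.54 to 0.27 (adjusted p = 0.567), and its sign turned to 0.19 under median-of-ratios scaling.

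DUSP4, a nuclear phosphatase of ERK and JNK, was high in all groups and changed by less than 2-fold. It held 39.0, 40.3 and 41.1 FPKM in control H460 and 57.4, 52.4 and 52.8 FPKM in treated H460. It held 61.1, 60.6 and 61.5 FPKM in control A549 and 101.2, 97.3 and 100.1 FPKM in treated A549. Groups did not overlap within either line. The log2 difference was 0.42 in H460 (SE 0.109, adjusted p = 0.00778) and 0.70 in A549 (SE 0.0591, adjusted p = 3.22e-05). The difference between the lines, −0.27 (adjusted p = 0.0435), turned to 0.04 under median-of-ratios scaling and missed the threshold in 13 of 19 alternatives, among them the removal of the third A549 control library (adjusted p = 0.0536).

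DUSP6, the cytoplasmic phosphatase specific to ERK and often taken as a gauge of ERK output, was among the less abundant members. Control H460 libraries held 3.08, 3.33 and 2.87 FPKM and treated ones 7.48, 6.77 and 9.46 FPKM. Control A549 libraries held 1.97, 1.87 and 2.53 FPKM and treated ones 4.70, 3.88 and 4.26 FPKM. The groups did not overlap in either line. Its log2 difference was 1.11 in H460 (SE 0.137, adjusted p = 0.000128) and 0.76 in A549 (SE 0.106, adjusted p = 0.000438), with ratios of 2.56 and 2.02 before the pseudocount. Without the third treated library, H460 fell to 0.99, just under 2-fold. The lines differed by 0.35 (adjusted p = 0.105), a difference that passed the threshold under median-of-ratios scaling at 0.64 (adjusted p = 0.0107).

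DUSP10, a phosphatase of p38 and JNK, had the largest ratio of the 10 genes in H460. It held 1.205, 0.932 and 0.855 FPKM in the control libraries, from 36 to 49 reads each, and 56.9, 68.0 and 49.8 FPKM in the treated ones, from 2091 to 3203 reads. In A549 it held 1.62, 2.62 and 2.08 FPKM in control and 5.95, 6.13 and 6.98 FPKM in treated libraries. Treated libraries lay above the controls in both lines, and in treated H460 the range of DUSP10 overlapped that of DUSP1. The ratio was 58.4 in H460 and 3.01 in A549, and the log2 differences were 4.88 (SE 0.142, adjusted p = 1.2e-07) and 1.25 (SE 0.126, adjusted p = 7.82e-05). The difference between the lines was 3.63 (adjusted p = 5.24e-08).

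DUSP8, which acts on JNK and p38, moved in opposite directions. Control H460 libraries held 0.434, 0.584 and 0.663 FPKM, from 31 to 49 reads each, and treated ones 9.37, 9.56 and 7.72 FPKM. Control A549 libraries held 1.97, 1.95 and 2.17 FPKM and treated ones 1.27, 1.26 and 1.29 FPKM. All treated H460 libraries were above and all treated A549 libraries below their controls. The log2 difference was 2.66 in H460 (SE 0.123, adjusted p = 7.97e-07) and −0.41 in A549 (SE 0.0706, adjusted p = 0.00136). Without the pseudocount the ratio of means was 15.9 in H460 and 0.628 in A549. The difference between the lines was 3.07 (adjusted p = 7.72e-09).

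SPRY2, the Sprouty protein that binds the ubiquitin ligase CBL and delays the loss of EGFR, was the most abundant member in treated H460. Its control H460 libraries held 6.04, 6.64 and 7.06 FPKM and its treated ones 99.4, 97.4 and 102.6 FPKM. In A549 the control libraries held 8.80, 9.19 and 8.47 FPKM and the treated ones 8.92, 9.01 and 9.76 FPKM. H460 treated libraries were an order of magnitude above their controls, while the A549 groups overlapped. The ratio was 15.2 in H460 and 1.05 in A549. The log2 difference was 3.74 in H460 (SE 0.109, adjusted p = 1.2e-07), and in A549 it was 0.06 with a 95% interval of −0.11 to 0.22 (adjusted p = 0.505). The interaction, 3.68 (adjusted p = 8.82e-10, limma), was the largest of the 10 on the log2(FPKM + 1) scale, which understates changes of low genes. This order depended on the setting. Over the alternatives tried the highest values were 4.97 for DUSP8, 4.57 for DUSP10 and 4.17 for SPRY2.

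One of 3 promoter windows of SPRY2 held 2 matches to the EGR motif GCGNGGGCG, on opposite strands, shown with 12 bases on either side and the match in capitals because EGR1 led the ERK output genes described further on. They lie at chr13:80341240-80341272 and chr13:80341147-80341179, minus strand (GRCh38.p14), and begin 134 and 41 bases before the start.
SPRY2 match at 134 bases: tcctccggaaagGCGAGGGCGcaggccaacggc
SPRY2 match at 41 bases: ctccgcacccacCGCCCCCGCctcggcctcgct
The motif was present in 9.43% of all windows, and 1.59% held 2 or more. SPRY4 held 1 match. EGR1 also rose in A549, by 4.82 on the log2 scale, where SPRY2 had a log2 difference of 0.06 (adjusted p = 0.505, limma). A link between EGR1 and SPRY2 was not tested. The AP-1 motif TGANTCA, present in 7.71% of windows, matched among the members in 1 window of SPRED2 only.

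SPRY4, a Sprouty that blocks RAS activation, was higher in H460 than in A549 throughout. Control H460 libraries held 9.21, 10.1 and 11.3 FPKM and treated ones 22.8, 24.9 and 22.6 FPKM. Control A549 libraries held 2.84, 2.84 and 2.57 FPKM and treated ones 3.68, 3.21 and 3.64 FPKM. The groups did not overlap within either line. The log2 difference was 1.13 in H460 (SE 0.115, adjusted p = 4.16e-05) and 0.26 in A549 (SE 0.0818, adjusted p = 0.0238). The A549 rise missed the threshold without the first or the third treated library (adjusted p = 0.0866 and 0.0851). The lines differed by 0.87 (adjusted p = 0.000113).

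The SPRED genes changed by less than 2-fold on the log2(FPKM + 1) scale. SPRED1 held 4.89, 3.53 and 4.31 FPKM in control H460, 7.77, 8.41 and 7.18 FPKM in treated H460, 4.43, 5.19 and 3.95 FPKM in control A549 and 7.09, 5.73 and 6.20 FPKM in treated A549. Treated libraries were above all controls of their line. The log2 difference was 0.75 in H460 (SE 0.132, adjusted p = 0.00101), reaching 1.17 by voom with median-of-ratios factors, and 0.41 in A549 (SE 0.109, adjusted p = 0.0119), where it missed the threshold without the first treated library (adjusted p = 0.0538). The difference between the lines, 0.34 (adjusted p = 0.111), passed under median-of-ratios scaling at 0.62 (adjusted p = 0.00655).

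SPRED2 was the member with the least change. It held 12.6, 13.1 and 13.6 FPKM in control H460 and 11.3, 12.3 and 9.68 FPKM in treated H460, 10.6, 11.6 and 10.3 FPKM in control A549 and 10.8, 10.3 and 10.5 FPKM in treated A549. All treated H460 libraries lay below the controls and the A549 groups overlapped. The log2 difference in H460 was −0.23 with a 95% interval of −0.50 to 0.05 (adjusted p = 0.120), and it turned to 0.03 under median-of-ratios scaling. In A549 the log2 difference was −0.04 with a 95% interval of −0.20 to 0.12 (adjusted p = 0.674).

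The make-up of each family was read from FPKM, which is per length. In H460 the summed level of the 6 DUSP genes went from 77.3 ± 3.31 to 280.4 ± 17.3 FPKM. DUSP4 made up 52.0% of the sum in control H460 and 19.3% after treatment, DUSP5 went from 22.4% to 31.5% and DUSP10 from 1.297% to 20.9%. In treated H460 the sum was thus shared by DUSP5, DUSP1, DUSP10 and DUSP4, none of them above 35.4% in any library. In A549 the sum went from 156 ± 10.4 to 385 ± 7.19 FPKM and DUSP1 led before and after, with 50.5% and 56.2%, followed by DUSP4 with 39.1% and 25.9%. The 4 Sprouty and SPRED genes summed to 34.1 ± 1.91 and then 142.1 ± 0.891 FPKM in H460, and to 26.9 ± 1.74 and then 29.6 ± 1.22 FPKM in A549. SPRY2 made up 19.3% of that sum in control H460 and 70.2% in treated H460, where SPRED2 went from 38.4% to 7.80%. In A549 SPRED2 remained the largest of the 4, with 40.3% and 35.6%.

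**Figure D3:**
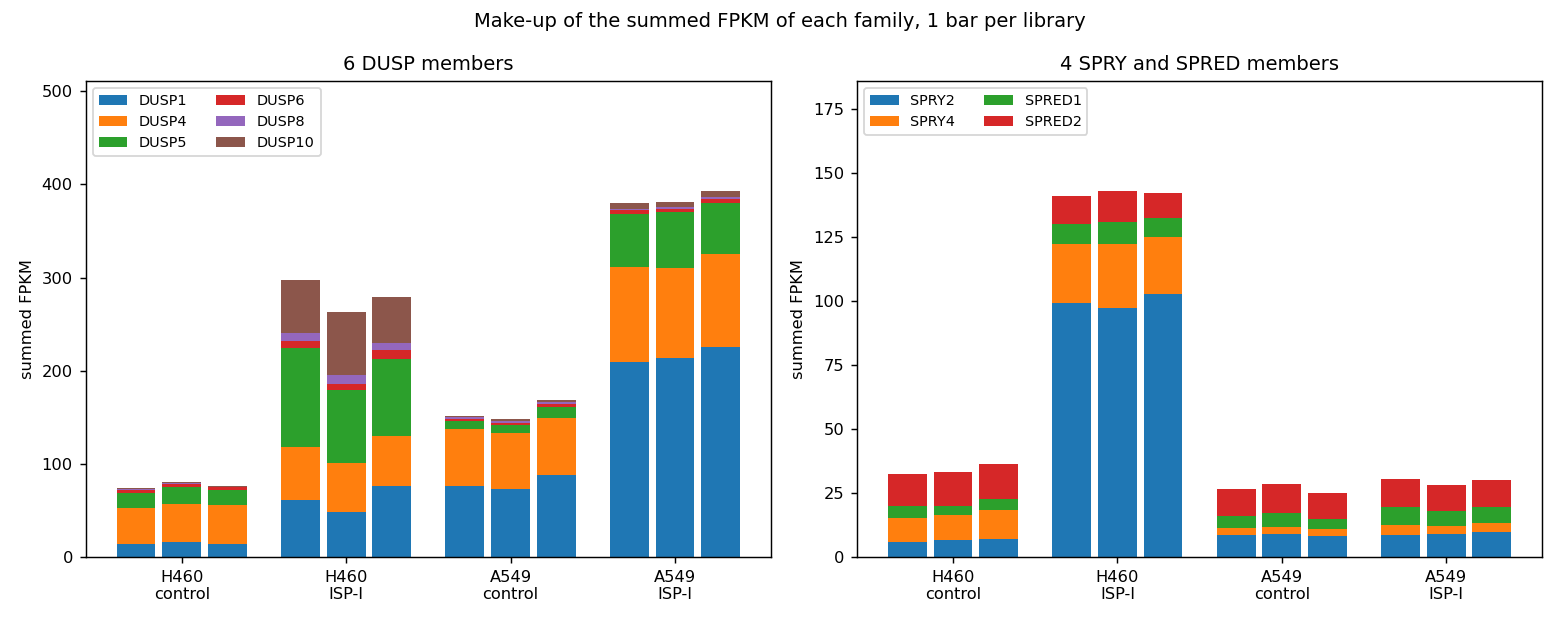
Summed FPKM of the 6 DUSP genes (left) and of the 4 Sprouty and SPRED genes (right), 1 bar per library from 0, stacked by gene. The DUSP sum is higher in the treated libraries of both lines, with DUSP10 visible in treated H460, and the SPRY2 block fills most of the right-hand bars in treated H460, where the sums are 141 to 143 FPKM.

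Before treatment the lines already differed in these genes. In control cells 4 members were higher in H460 (SPRY4, DUSP5, DUSP6 and SPRED2) and 5 were lower (DUSP1, DUSP8, DUSP10, DUSP4 and SPRY2), at an adjusted p that 28.6% of the 13532 genes tested reached in the higher and 31.6% in the lower direction. Over 2-fold there were SPRY4, higher in H460, and DUSP1, lower, where 5.64% of genes were higher and 8.78% lower. DUSP1 was 5.21-fold higher in A549 (log2 difference of H460 minus A549 −2.30, adjusted p = 2.56e-07). SPRY4 was 3.70-fold higher in H460 (log2 difference 1.57, adjusted p = 2.45e-06). DUSP8 had a log2 difference of −0.96 (adjusted p = 2.16e-05) and counted as over 2-fold with a pseudocount of 0.1. Without a pseudocount the control mean in A549 was 3.62-fold that in H460 for DUSP8 and 2.11-fold for DUSP10. DUSP6 (0.40, adjusted p = 0.0126) and SPRED2 (0.25, adjusted p = 0.0298) missed the threshold when certain single libraries were left out, with adjusted p up to 0.0529 and 0.0964, and 0.0502 for SPRED2 without the third A549 control library. SPRED1 had a log2 difference of −0.08 (adjusted p = 0.627). The median over the members was −0.23, beside −0.03 over all genes tested.

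Ranked by mean FPKM, control H460 ran DUSP4, DUSP5, DUSP1, SPRED2, SPRY4, SPRY2, SPRED1, DUSP6, DUSP10 and DUSP8, and of these neighbours DUSP5 and DUSP1 overlapped between libraries. Treated H460 ran SPRY2, DUSP5, DUSP1, DUSP10, DUSP4, SPRY4, SPRED2, DUSP8, DUSP6 and SPRED1. There SPRY2 overlapped with DUSP5. DUSP1, DUSP10 and DUSP4 overlapped with each other in treated H460, as did DUSP8, DUSP6 and SPRED1. Control A549 ran DUSP1, DUSP4, SPRED2, DUSP5, SPRY2, SPRED1, SPRY4, DUSP6, DUSP10 and DUSP8, where DUSP5 overlapped with SPRED2 and SPRY2 and the last 3 were not apart, at 2.03 to 2.12 FPKM. Treated A549 ran DUSP1, DUSP4, DUSP5, SPRED2, SPRY2, DUSP10, SPRED1, DUSP6, SPRY4 and DUSP8, with DUSP10 and SPRED1 overlapping.

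Related phosphatases and Sprouty genes outside the 10 moved in both directions. For these and the lists below, 2-fold is counted on the log2(FPKM + 1) scale, which understates changes of low genes. The counts over the lists that follow are to be read against all genes tested, of which 10.5% rose and 15.2% fell over 2-fold in H460 and 4.20% and 3.51% in A549, while at any fold the shares were 27.6% and 41.5% for H460, then 30.5% and 27.0% for A549. Of the 4 other MAPK phosphatases, DUSP2, an inducible nuclear phosphatase, rose over 2-fold in H460 (log2 difference 1.97, from 13.3 ± 0.791 to 56.0 ± 12.4 FPKM) and DUSP9, a cytoplasmic one, fell (−2.16, from 5.67 ± 0.533 to 0.486 ± 0.0566 FPKM). In A549 none of the 4 passed 2-fold on that scale. DUSP16, a JNK phosphatase, rose by 0.90 on the log2 scale in A549, from a mean of 5.48 to 11.1 FPKM. DUSP7, a cytoplasmic ERK phosphatase, rose by 0.70 in H460 and 0.51 in A549. DUSP2 rose by 0.52 in A549, from a mean of 0.130 to 0.640 FPKM. Among SPRY1, SPRY3 and SPRED3, SPRED3 (0.98) and SPRY1 (0.86) rose and SPRY3 (−0.64) fell in H460. In A549 SPRY1 (0.22, adjusted p = 0.0670) and SPRED3 (0.18, adjusted p = 0.0512) did not pass, and SPRY3 was below the 0.1 FPKM needed for a test. SPRY1 and SPRED3 exceeded 2-fold in H460 on the log2(FPKM + 1) scale under median-of-ratios scaling. As deposited, their H460 means went from 0.562 to 1.84 FPKM for SPRY1 and from 0.453 to 1.87 FPKM for SPRED3. The H460 mean of SPRY3 went from 0.861 to 0.195 FPKM, a fall over 2-fold without the pseudocount.

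The atypical DUSP genes are small phosphatases that lack the MAPK-binding domain. In H460, where 10.5% of all genes rose and 15.2% fell over 2-fold, 2 of the 9 tested rose over 2-fold, DUSP14 (1.49) and DUSP11 (1.04), and 2 fell over 2-fold, DUSP22 (−1.66) and, named after its value was seen, DUSP23 (−1.65), with a list median of −0.26. Without the pseudocount DUSP19 and DUSP18, named after their values were seen, also fell over 2-fold in H460. Their means there went from 0.776 to 0.129 and from 0.452 to 0.149 FPKM. In A549 none of 11 passed 2-fold on the log2(FPKM + 1) scale. At any fold 6 rose and 3 fell there (30.5% and 27.0% of all genes), led by DUSP3 (0.93), DUSP14 (0.75) and DUSP11 (0.66), with a median of 0.28.

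ERK output genes, transcripts known to follow ERK activity, rose in greater part in both lines, 9 of 13 in H460 and 8 of 13 in A549 at any fold, where 27.6% and 30.5% of all genes rose. In H460, 8 of the 13 rose over 2-fold and 1 fell, beside 10.5% and 15.2% of all genes. The median was 2.25 on the log2 scale, beside −0.15 over all genes. EGR1, an immediate-early zinc-finger factor, went from 2.24 ± 0.252 to 761 ± 86.8 FPKM (log2 difference 7.87, adjusted p = 3.51e-08), the largest rise of all genes tested in H460. FOS, a subunit of AP-1, went from 1.46 ± 0.433 to 96.9 ± 20.4 FPKM (5.31), and PHLDA1 from 7.83 ± 0.201 to 87.6 ± 4.39 FPKM (3.33). In A549, 3 of 13 rose over 2-fold, beside 4.20% of all genes. They were EGR1 at 4.82, FOS at 1.58 and the AP-1 subunit FOSL1 at 1.45 on the log2 scale. None fell by that much on the log2(FPKM + 1) scale, where the median was 0.27. Without the pseudocount ETV1, taken up next, fell over 2-fold, from a mean of 1.90 to 0.685 FPKM. At any fold 2 of the 13 fell in each line, and these, named after their values were seen, were the ETS factors ETV5 (−1.19) and ETV4 (−0.55) in H460 and ETV1 (−0.78) and ETV5 (−0.75) in A549. Under median-of-ratios scaling ETV5 no longer fell over 2-fold in H460, and ETV4 missed the threshold there (−0.27, adjusted p = 0.131, limma). The H460 counts at any fold were then 10 higher and 1 lower.

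Counts for the genes of the cascade itself lay near those of all genes. Of 15 genes from EGFR through RAS and RAF to ERK, 5 rose and 8 fell in H460, 2 of each over 2-fold, with a median of −0.36, where 27.6% of all genes rose, 41.5% fell, and 10.5% and 15.2% did so over 2-fold. EGFR, the receptor of epidermal growth factor, rose by 1.25 and is named after its value was seen. BRAF, a RAF kinase, rose by 1.65 from 0.957 ± 0.112 to 5.20 ± 1.25 FPKM. MAPK3, which codes for ERK1, fell by 1.24 on the log2 scale and GRB2, the adaptor between receptors and RAS, fell by 1.01. Under median-of-ratios scaling no gene of this list fell over 2-fold in H460 and the counts at any fold were 7 higher and 5 lower. In A549, 4 rose and 4 fell, none over 2-fold, with EGFR at 0.89 and MAPK3 at −0.73 on the log2 scale and a median of 0.02.

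Among kinases of the JNK and p38 arms, MAP2K3, which activates p38, rose over 2-fold in both lines, by 2.25 in H460 (34.8 ± 3.83 to 168.9 ± 12.2 FPKM) and by 1.12 in A549. In H460, 4 of the 10 tested fell over 2-fold, beside 15.2% of all genes, the p38 isoforms MAPK12 (−1.89) and MAPK11 (−1.76) and, named after their values were seen, MAPK9 (−1.74) and MAPK14 (−1.20), and the median was −0.54. Under median-of-ratios scaling 3 did. In A549, MAP2K6, the other p38 activator, fell over 2-fold (−1.27), from a mean of 2.47 to 0.433 FPKM. MAP2K6 fell in H460 too, by 0.84 on the log2(FPKM + 1) scale. Without the pseudocount that H460 fall was over 2-fold, from a mean of 0.974 to 0.104 FPKM. MAPK9, which codes for JNK2, fell by 0.54 on the log2 scale in A549, where the list median was −0.10. The 6 binding partners of Sprouty and SPRED stayed within 2-fold in both lines on the log2(FPKM + 1) scale. On that scale 2 of them rose over 2-fold in H460 under median-of-ratios scaling. Without the pseudocount DYRK1A rose over 2-fold in H460 as deposited, from a mean of 1.524 to 3.596 FPKM. DYRK1A (0.86), CBL (0.84) and CAV1 (0.67) rose in H460, where the median was 0.53. In A549 DYRK1A rose by 0.42, CAV1 fell by 0.51 and NF1, the gene of neurofibromin, had a log2 difference of −0.18 (adjusted p = 0.186), with a median of 0.02. No gene of these lists that passed the test in a comparison changed sign there under median-of-ratios scaling or quantile normalization.

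**Figure D4:**
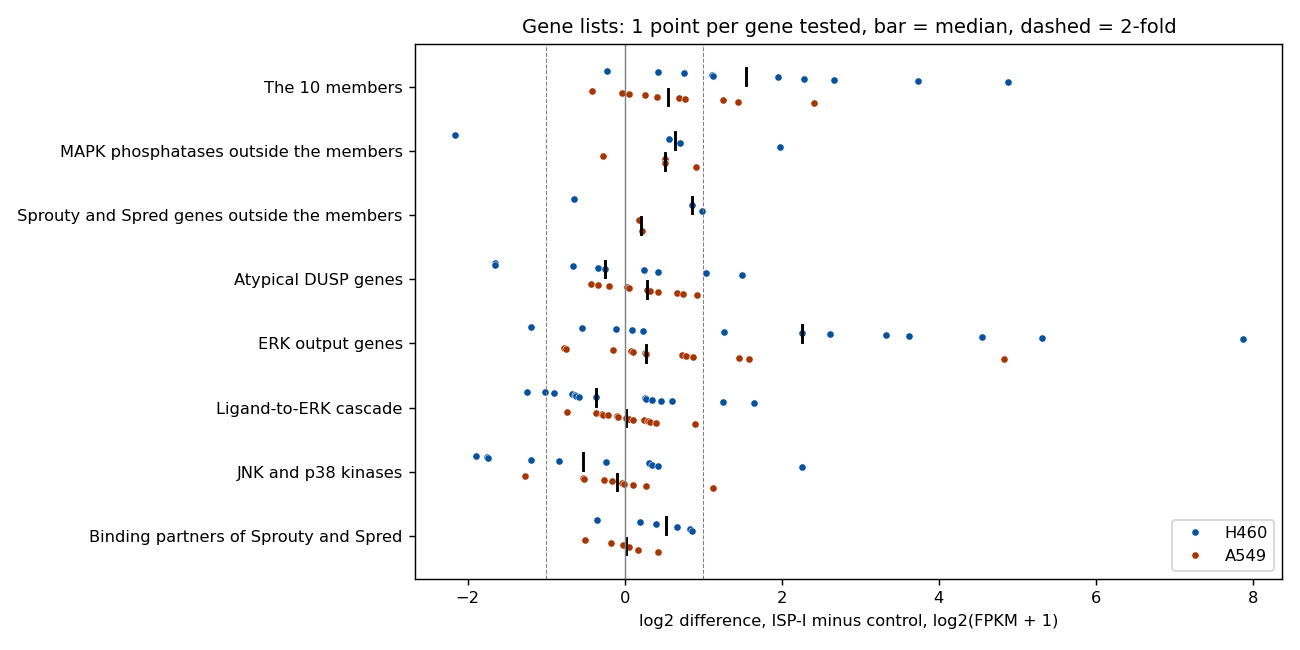
Log2 difference of ISP-I minus control on the log2(FPKM + 1) scale, 1 point per tested gene, for the 10 members and the 7 other lists in H460 (blue) and A549 (orange), with a bar at each list's median and dashed lines at 2-fold. The medians of the members are 1.54 and 0.55, those of the ERK output genes 2.25 and 0.27, and the cascade kinases scatter on both sides of 0.

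Across the 12 libraries the members fell into patterns that the group means already set, so the correlations of log2(FPKM + 1) that follow are descriptions and carry no test. DUSP1 and DUSP4 had the highest Pearson r of any pair, 0.963, both being higher in A549. DUSP8, DUSP10 and SPRY2, high in treated H460, had r of 0.922 to 0.962 with each other. DUSP5 and DUSP6 had r of 0.928, and the lowest r was −0.828, between DUSP1 and SPRED2. Of 10593 other genes that averaged 1 FPKM or more, the closest in pattern were LANCL2 for DUSP1 (r = 0.994), INKA2 for DUSP4 (0.994), DPF2 for DUSP5 (0.994), POLR3D for DUSP6 (0.986), CEP170B for DUSP8 (0.992), ZIC5 for DUSP10 (0.995), PRSS22 for SPRY2 (0.994), CA13 for SPRY4 (0.996), USP38 for SPRED1 (0.981) and TMEM131 for SPRED2 (0.953). PRSS22 was at 0 in the control H460 libraries, averaged 10.96 FPKM in the treated ones and reached a mean of 0.299 FPKM in treated A549. ZIC5 averaged 2.59 FPKM in control and 19.3 FPKM in treated H460, with 3.42 and 5.99 FPKM in A549.

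The table places the genes on hg38 as follows: DUSP1 at chr5:172768096-172771195, SPRY4 at chr5:142310427-142326455, DUSP4 at chr8:29333064-29350684, DUSP6 at chr12:89347235-89352501, DUSP8 at chr11:1554051-1572271, DUSP10 at chr1:221701424-221742089, SPRY2 at chr13:80335976-80341126 and SPRED2 at chr2:65310851-65432637 on the minus strand, and DUSP5 at chr10:110497907-110511533 and SPRED1 at chr15:38252836-38357249 on the plus strand. In GENCODE, DUSP1, DUSP6, DUSP8 and SPRY4 overlap a noncoding gene on the opposite strand, KRTAP5-AS1 for DUSP8 and SPRY4-AS1 for SPRY4, and SPRED2 overlaps one on its own strand. The strand setting of the counting is not given in the sources used here, so reads of these 5 genes and their partners may not be told apart where they overlap.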

How the data were processed

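Total RNA of non-treated and ISP-I treated H460 and A549 cells was sequenced as 150-base read pairs. Per the labels and the study's methods, reads passed FastQC, HISAT2 aligned them to hg38 and HTSeq 0.9.1 counted them, after which the authors deposited FPKM values for each library. The table also lists gene lengths and positions. Strand setting and annotation version are not given in the sources used here. All 12 value columns were used. They name line and treatment but not the labels' replicate numbers, so libraries are numbered within a group.

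FPKM times length gave whole reads for 100% of values (within 0.05 reads), which gave depths of 14225849 to 17874422 reads. Libraries of a group differed beyond counting noise (chi-square per degree of freedom 2.95 to 92.0), and none was treated as a copy. The table's 4 lines that name no gene were left out, and 1924 genes had no reads. Genes averaging 0.1 FPKM or more over the libraries compared were tested with limma 3.58.1 (lmFit, eBayes with trend) in R 4.3.3 on log2(FPKM + 1), which understates changes of low genes, with Benjamini-Hochberg adjustment over all genes tested. The interaction was fitted over 12 libraries. The script was tested on simulated data. Alternatives were a smaller pseudocount (0.1), a stricter filter (1 FPKM) or none, median-of-ratios scaling, quantile normalization, voom on recovered reads (at least 10 reads in 3 libraries), any fold change, all 12 libraries in a single fit and each library left out. Promoter windows were RefSeq's (GRCh38.p14), and plots used Python 3.11.15 and matplotlib 3.10.9.

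The members and the gene lists were chosen with earlier results of these data known. Named genes are the 10 members, in each other list up to 3 genes with the smallest p in H460 and up to 3 in A549, and for each member the gene with the highest Pearson r. For 1 gene that this rule names, the value is not reported here.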

Additional observations from a re-analysis of the deposited data

Results flagged for a closer look

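For 6 of the 10 genes the change with ISP-I differed between H460 and A549 by the interaction test of limma (adjusted p under 0.05). At that threshold 18.6% of the 13953 genes tested had a positive difference and 34.7% a negative one. Values are the H460 change minus the A549 change on the log2(FPKM + 1) scale. SPRY2 (3.68, adjusted p = 8.82e-10), DUSP10 (3.63, adjusted p = 5.24e-08) and DUSP8 (3.07, adjusted p = 7.72e-09) differed under each of the 19 alternatives tried, with the lowest values 3.62, 3.51 and 3.01. SPRY4 differed by 0.866 (adjusted p = 0.000113) and passed under the same alternatives. DUSP1 differed by 0.506 (adjusted p = 0.0494) and missed the threshold in 11 of them. DUSP4 differed by −0.272 (adjusted p = 0.0435), toward A549, and missed the threshold in 13, in 2 of which the sign turned.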

How the results depend on the processing

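Of the alternative values for single members, 560 kept their direction and side of the threshold, 31 lost and 7 gained the threshold in the same direction, and 12 changed sign. The count of members over 2-fold in H460 was 7 upward and 0 downward, and 6 to 7 upward with 1 library left out. Median-of-ratios scaling raised the members past 1 for the difference between the lines from 3 to 4, and at any size from 5 and 1 to 7 and 0. Counting any fold change gave 9 upward in H460, 7 upward and 1 downward in A549, 5 upward and 1 downward for the difference between the lines, and 4 upward and 5 downward for control H460 against control A549. In that last comparison the count downward was 1, became 2 with a pseudocount of 0.1 and 3 with voom under either scaling, and ranged from 1 to 2 with 1 library left out (2 without the third H460 control library). Median-of-ratios scaling and voom with it turned the sign of SPRED2 in H460 (0.033 and 0.037) and, in the contrast of changes between the lines, of DUSP4 (0.039 and 0.044), DUSP5 (0.19 and 0.13) and SPRED2 (0.10 and 0.11). Quantile normalization turned SPRED1 between the control lines to 0.059, and leaving out 1 library gave −0.17 to 0.025 there and −0.068 to 0.0059 for SPRED2 in A549. None of these turned values passed the test, and the cause was not tested. SPRED2 in H460 passed when all 12 libraries were fitted together (−0.23, adjusted p = 0.0359).

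Over all genes, counts past 2-fold changed with the setting: in H460 1409 higher (1327 to 3711) and 2047 lower (1504 to 5576), in A549 575 (519 to 4185) and 481 (475 to 3702), for the difference between the lines 827 (733 to 2596) and 1407 (825 to 4841), and for the control lines 763 (706 to 3869) and 1188 (1069 to 4276), the highest from counting any fold. With median-of-ratios voom the H460 split was 3056 higher to 2769 lower and that for the difference between the lines 2114 to 1909, where quantile normalization gave 1048 and 919. The members' levels are given only as deposited. Under median-of-ratios scaling the H460 ratios of means were higher, 71.1 for DUSP10 and 18.4 for SPRY2. Depth limits DUSP8 and DUSP10 in control H460, at 31 to 49 reads. No paired analysis was possible because the columns do not carry the labels' replicate numbers.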
